A study of Homo sapiens with 3 samples.

Results

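Small nucleolar RNA (snoRNA) host genes are genes whose introns, or less often exons, carry snoRNAs, and 10 of them are described here out of 58039 genes listed in the deposited table. They are SNHG25, SNHG8, SNHG15, SNHG5, GAS5, SNHG1, ZFAS1, SNHG12, SNHG6 and SNHG16, each found by its symbol. The genes were chosen from earlier results on the same FPKM values in these 3 libraries, so their levels and changes are given as a description, with no test. After splicing, a host intron is trimmed to release its snoRNA, which guides the chemical modification of ribosomal or small nuclear RNA. The C/D box class guides ribose methylation and the H/ACA box class guides pseudouridylation. The spliced host RNA is a separate product, and many noncoding hosts begin with a run of pyrimidines, like the messenger RNAs of ribosomal proteins, and are degraded by nonsense-mediated decay in the cytoplasm.

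The cells were T47D, an estrogen receptor-positive line of human breast cancer with luminal features. Stable cells carried shRNA1 or shRNA2, lentiviral short hairpins against the long noncoding RNA ERINA, and were selected with puromycin. The control library is called shCtrl in its description, while its shRNA label is None, so whether it carried a hairpin was not settled. With 1 library for each hairpin and 1 for the control, no hairpin was repeated. Any p-value below rests on the spread between the 2 hairpin libraries, with each gene's spread drawn towards that of the other genes fitted. It holds no measure of the spread between control libraries. Levels are given as FPKM, fragment numbers corrected for the length of a gene's transcripts and the size of the library, with the lower and upper bounds the authors deposited beside them. The sequencing depth behind the FPKM is unknown, and the level of confidence of the bounds is not given in the sources used here. ERINA, a RefSeq synonym of LINC00992, is listed under that symbol, at 5.21 FPKM with shRNA1 (bounds 2.09 to 8.34), 8.91 FPKM with shRNA2 (4.04 to 13.8) and 63.4 FPKM in the control (38.4 to 88.5). Of the marker genes looked up, 8 of 8 luminal genes were at 16.5 FPKM or more in every library, and immune and endothelial genes were at 0.281 FPKM or less. Of 3 basal genes only TP63 passed 1 FPKM, at 1.36 with shRNA1, 1.63 with shRNA2 and 1.53 in the control. Of 3 stromal genes only COL1A1 did, at 1.65 FPKM with shRNA1, 2.10 FPKM with shRNA2 and 5.16 FPKM in the control, and any part of this in the values below was not tested.

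The 10 host genes did not move together. SNHG25 was listed 33.3-fold and 27.4-fold above its control level with shRNA1 and shRNA2, SNHG8 1.56-fold and 1.51-fold, and SNHG15, SNHG5 and GAS5 were slightly higher with both hairpins. SNHG16, SNHG6, SNHG12 and ZFAS1 were lower with both, and SNHG1 differed in sign between the hairpins. The deposited bounds of each hairpin library overlapped those of the control for all 10 genes.

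Transcript starts are shown first because 7 of the 10 genes have at least 1 annotated transcript that opens with the pyrimidines CTTT. The first 30 bases of 1 annotated transcript follow for 8 of the 10 genes, without SNHG6 and SNHG15, with the unbroken run of C and T at the start in capitals, from GENCODE release 29 on GRCh38. For GAS5, SNHG16, SNHG5, SNHG8, ZFAS1 and SNHG25 the transcript shown was picked because it begins with CTTT. The transcripts shown for SNHG1 and SNHG12 do not begin with CTTT. Their first 4 bases open 1 of 25 SNHG1 transcripts and 3 of 17 SNHG12 transcripts, so they do not stand for all starts of these genes.

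GAS5: CTTTTCgaggtaggagtcgactcctgtgag
SNHG16: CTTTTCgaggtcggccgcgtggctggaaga
SNHG5: CTTTTacgtcggccttcgcgagcgtctggg
SNHG8: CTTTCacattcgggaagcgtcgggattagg
ZFAS1: CTTTCgcgtctgcggtgcccggagtgtggt
SNHG25: CTTTCagcgcctgcaggttccgggagctcc
SNHG1: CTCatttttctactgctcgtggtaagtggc
SNHG12: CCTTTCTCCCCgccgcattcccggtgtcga

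GAS5 and SNHG16 share their first 11 bases. A transcript starting with CTTT, searched as the first 4 bases on the transcript's own strand, was annotated for 7 of the 10 genes: both SNHG25 transcripts, 6 of 29 for GAS5, 3 of 23 for SNHG5, 3 of 5 for SNHG6, 2 of 8 for SNHG16, 2 of 10 for ZFAS1 and 1 of 5 for SNHG8. SNHG1 with 25 transcripts, SNHG12 with 17 and SNHG15 with 10 had none. The same start was found in 5.30% of 13066 genes with a mean of at least 1 FPKM and a GENCODE transcript, and in 3.51% of 797 long noncoding genes. Among 23 noncoding snoRNA host genes outside the 10, it was annotated for 3, or 13.0%. Counted over transcripts, it began 19 of the 134 transcripts of the 10 genes, or 14.2%, and 0.743% of those of all such genes. Genes with more annotated transcripts have more chances to hold a match. The reverse complement, AAAG, started no transcript of the 10 genes and was found in 5.09% of all genes. Of the 7 genes with a CTTT start, SNHG25, SNHG8, SNHG5 and GAS5 were higher with both hairpins, and SNHG16, SNHG6 and ZFAS1 were lower. Whether the start has a part in the direction of change was not tested. The search for CTTT also misses other pyrimidine runs, such as the 11 bases that open the SNHG12 transcript shown. A match is a description of the annotated start and not a measured start site in these cells.

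SNHG25 (ENSG00000266402, chr17:64145970-64146476, plus strand, GRCh38) is the shortest of the 10 genes, with a longest transcript of 278 nt. It was at 102 FPKM with shRNA1 (bounds 0 to 345), 83.7 FPKM with shRNA2 (0 to 323) and 3.05 FPKM in the control (0 to 6.40). Both hairpin libraries were high and the control was low, yet the bounds of all 3 start at 0. The levels were 33.3-fold and 27.4-fold above the control with shRNA1 and shRNA2, a mean log2 change of 4.71 on the log2(FPKM + 0.5) scale used throughout. Changes of this size were also listed for other short genes: of 294 genes under 300 nt that passed the filter of a mean of at least 1 FPKM, 7 were at least as far above the control, SNHG25 included, and 18 at least as far below it. In 237 of these 294 genes the bounds started at 0 in all 3 libraries.

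Both annotated SNHG25 transcripts are shown because they differ by the snoRNA that the longer one holds in its last exon. Capitals mark the bases annotated as SNORA50C, an H/ACA box snoRNA of 133 nt.

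Shorter SNHG25 transcript: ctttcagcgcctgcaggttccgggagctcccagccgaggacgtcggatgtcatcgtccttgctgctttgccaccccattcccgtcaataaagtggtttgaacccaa
Longer SNHG25 transcript: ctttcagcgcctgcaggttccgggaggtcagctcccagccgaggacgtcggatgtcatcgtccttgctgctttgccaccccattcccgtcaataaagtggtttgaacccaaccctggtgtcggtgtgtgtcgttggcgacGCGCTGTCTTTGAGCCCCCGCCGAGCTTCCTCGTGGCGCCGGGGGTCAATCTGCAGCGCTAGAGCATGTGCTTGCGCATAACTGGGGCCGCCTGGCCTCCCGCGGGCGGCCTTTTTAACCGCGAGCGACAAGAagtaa

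SNORA50C occupies positions 141 to 273 of the longer transcript, which has 278 nt, and is absent from the shorter one of 106 nt. SNORA50C has a row of its own and moved the other way: it was at 37.4 FPKM with shRNA1 (bounds 0 to 100.5), 33.1 FPKM with shRNA2 (0 to 94.9) and 71.2 FPKM in the control (0 to 154). Its log2 changes were -0.92 with shRNA1 and -1.10 with shRNA2. Fragments from the shared bases can be given to either row, so the levels of SNHG25 and SNORA50C are uncertain as separate quantities. The FPKM of both rows summed to 139 with shRNA1, 117 with shRNA2 and 74.3 in the control, or 1.87-fold and 1.57-fold above the control. This sum adds values scaled by different lengths and is not a fragment count. A second guest, SNORD104, lies in the SNHG25 intron and was listed at 0 in all 3 libraries. Whether a shift of fragments between the overlapping rows has a part in the SNHG25 values was not tested.

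**Figure D1:**
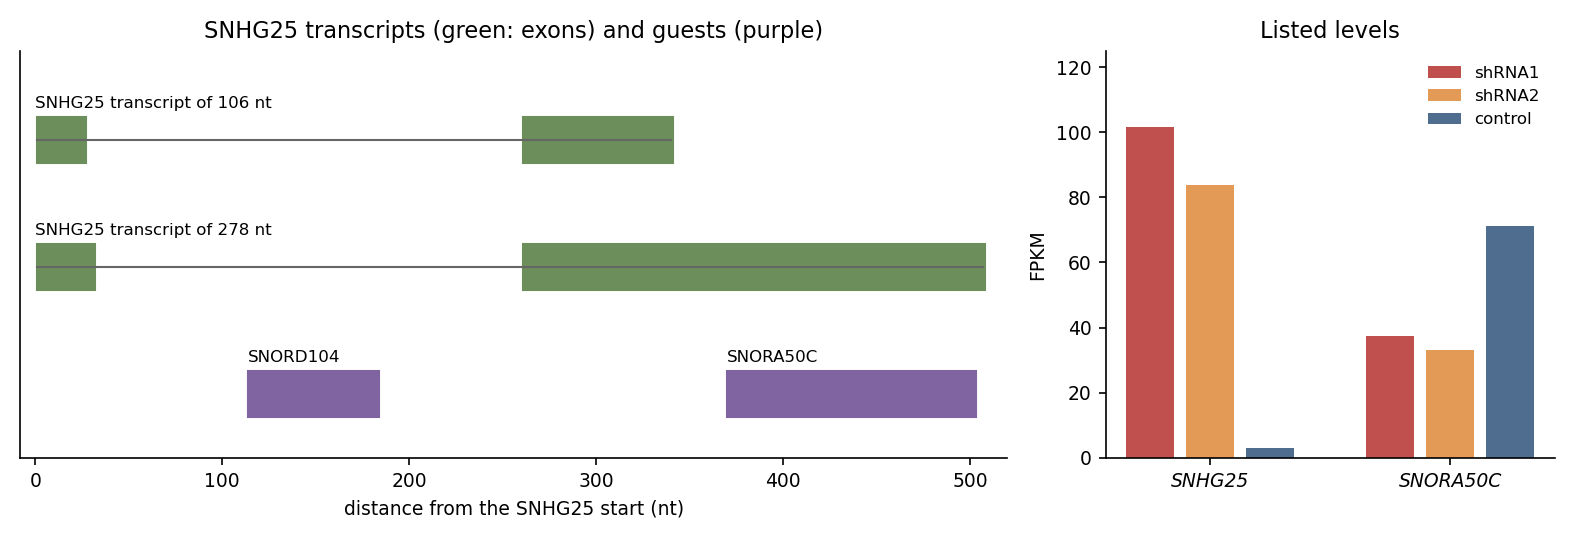
Left, the exons of both SNHG25 transcripts and the guest snoRNAs by distance in nt from the gene start. Right, the listed FPKM of SNHG25 and SNORA50C as 1 bar per library (shRNA1, shRNA2, control); SNHG25 is at 102, 83.7 and 3.05 FPKM while SNORA50C is at 37.4, 33.1 and 71.2 FPKM.

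SNHG8 (ENSG00000269893, chr4:118278709-118279823, plus strand) hosts the H/ACA box snoRNA SNORA24. It was at 163 FPKM with shRNA1 (bounds 94.2 to 233), 158 FPKM with shRNA2 (86.3 to 230) and 105 FPKM in the control (55.6 to 154). The hairpin libraries lay close together, 0.05 apart on the log2 scale, and both stood above the control by 0.64 with shRNA1 and 0.59 with shRNA2. SNHG8 and SNHG25 were the 2 genes of the 10 at least 1.5-fold higher with both hairpins, a size reached by 5.5% of all 13112 genes tested. SNHG8 lies just inside that line, at 1.56-fold and 1.51-fold, and the next of the 10, SNHG15, was below it at 1.40-fold and 1.19-fold. None of the 10 was at least 1.5-fold lower with both, as 7.21% of all genes were.

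GAS5 (ENSG00000234741, chr1:173863900-173868882, minus strand), named for its accumulation in growth-arrested cells, has an RNA that can bind the glucocorticoid receptor. It was at 351 FPKM with shRNA1 (bounds 219.5 to 482), 356 FPKM with shRNA2 (223 to 489) and 303 FPKM in the control (184 to 422). The hairpin libraries differed from each other by 0.02 on the log2 scale and stood 0.21 and 0.23 above the control. SNHG5 (ENSG00000203875, chr6:85660950-85678748, minus strand) hosts C/D box snoRNAs of the SNORD50 family. It was at 268 FPKM with shRNA1 (bounds 169 to 367), 288 FPKM with shRNA2 (181 to 394) and 232 FPKM in the control (146 to 319), log2 changes of 0.20 and 0.31. GAS5 and SNHG5 were thus above the control in both hairpin libraries, with bounds that overlap those of the control over most of their width.

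SNHG15 (ENSG00000232956, chr7:44983023-44986961, minus strand) hosts SNORA9. It was at 41.4 FPKM with shRNA1 (bounds 24.2 to 58.7), 35.2 FPKM with shRNA2 (20.2 to 50.2) and 29.5 FPKM in the control (16.2 to 42.7). Its log2 changes were 0.48 with shRNA1 and 0.25 with shRNA2, so the gap between the hairpins, 0.23, was close to the smaller of these changes. SNHG1 (ENSG00000255717, chr11:62851988-62855914, minus strand) hosts SNORD22 and several other C/D box snoRNAs. It was at 36.9 FPKM with shRNA1 (bounds 21.0 to 52.9), 40.0 FPKM with shRNA2 (22.9 to 57.2) and 37.8 FPKM in the control (19.5 to 56.2), which lies between both hairpin libraries.

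ZFAS1 (ENSG00000177410, chr20:49278178-49295738, plus strand) starts head to head with the protein-coding gene ZNFX1 and hosts the SNORD12 family of C/D box snoRNAs. It had the highest level of the 10 genes in every library, at 394 FPKM with shRNA1 (bounds 179.9 to 608), 412 FPKM with shRNA2 (191 to 634) and 417 FPKM in the control (189.6 to 645). Its log2 changes of -0.08 and -0.02 are of the size of the gap between the hairpins, 0.07. SNHG12 (ENSG00000197989, chr1:28578538-28583132, minus strand), host of SNORA61, SNORA44 and SNORA16A, had the lowest level in each hairpin library. It was at 5.07 FPKM with shRNA1 (bounds 0 to 10.6), 6.23 FPKM with shRNA2 (0 to 12.7) and 6.89 FPKM in the control (0.435 to 13.3), so its bounds are about as wide as its level on either side. The log2 changes of SNHG12 were -0.41 and -0.14.

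SNHG16 (ENSG00000163597, chr17:76557766-76565348, plus strand), which hosts the SNORD1 family, was the gene furthest below the control. It was at 107 FPKM with shRNA1 (bounds 69.9 to 145), 121 FPKM with shRNA2 (78.9 to 163) and 154 FPKM in the control (102 to 206). Its log2 changes were -0.52 with shRNA1 and -0.35 with shRNA2, and the hairpins differed by 0.17. SNHG6 (ENSG00000245910, chr8:66921684-66926398, minus strand), the host of SNORD87, was at 176 FPKM with shRNA1 (bounds 98.1 to 253), 188 FPKM with shRNA2 (104 to 271) and 225 FPKM in the control (129 to 321). For SNHG16 and SNHG6 both hairpin libraries lay below the control, with log2 changes of -0.36 and -0.26 for SNHG6.

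**Figure D2:**
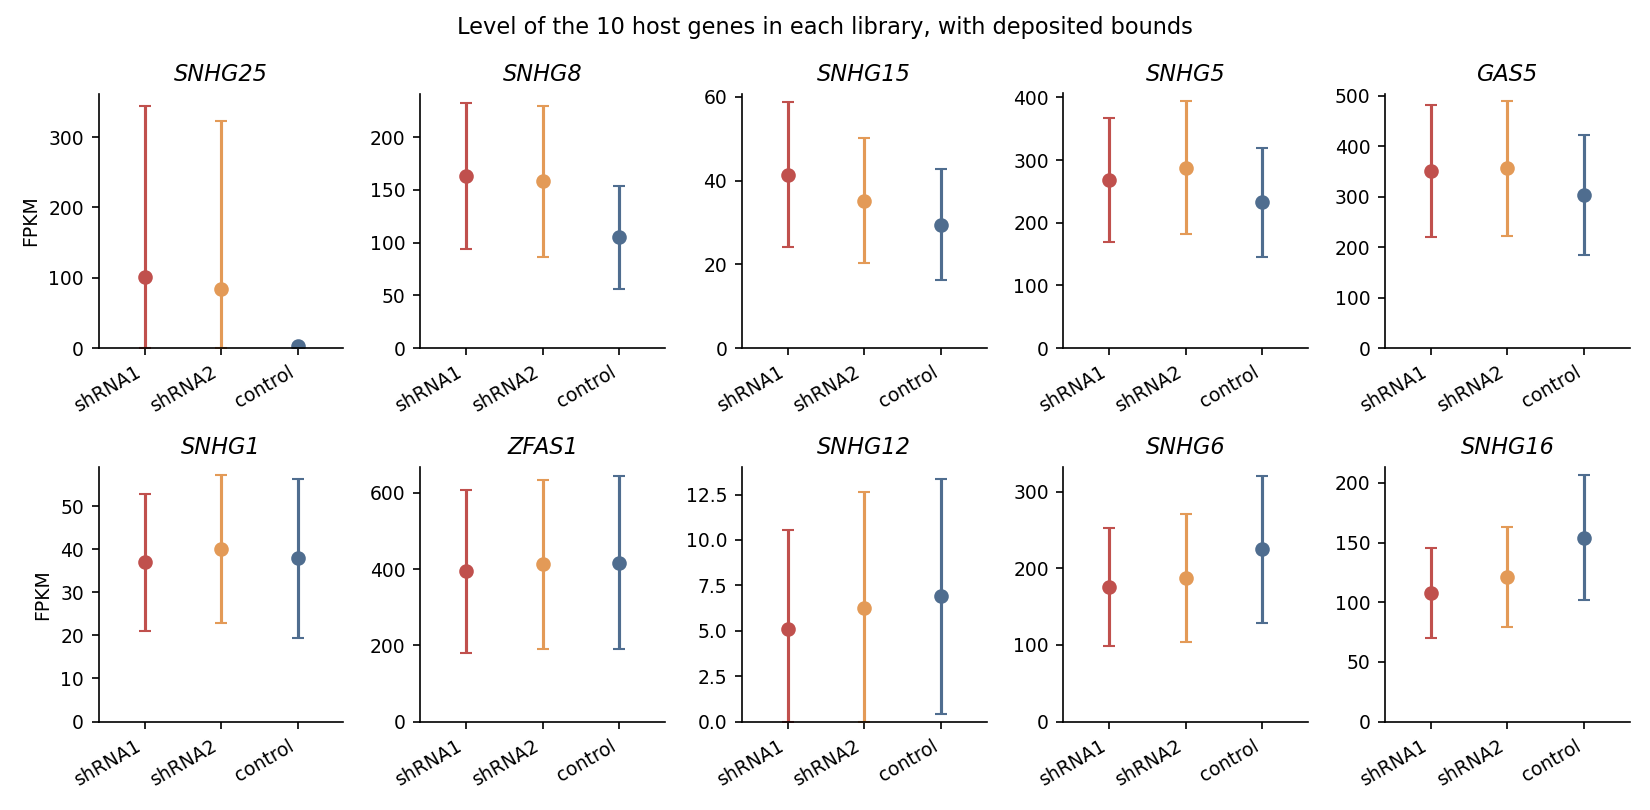
FPKM of each of the 10 host genes (vertical axes, linear from 0, own scale per gene) in the shRNA1, shRNA2 and control libraries. Points are the listed FPKM and bars run between the deposited lower and upper bounds; the bars of the hairpin libraries overlap those of the control in every panel.

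Several of the 10 genes were among the most abundant long noncoding RNAs of these cells. Ranked by FPKM among listed noncoding genes with a transcript of at least 300 nt, ZFAS1 stood at 4 with shRNA1, 4 with shRNA2 and 3 in the control. GAS5 stood at 5, SNHG5 at 6 and SNHG6 at 7 in each library. SNHG8 stood at 8 with each hairpin and at 10 in the control, whereas SNHG16 stood at 13 with shRNA1, 11 with shRNA2 and 8 in the control, so the places of SNHG8 and SNHG16 changed over. SNHG15, SNHG1 and SNHG12 ranked lower, and SNHG25 is too short for this ranking. The bounds of neighbours in this order overlap, so the order from ZFAS1 to SNHG6 is not set apart by them. The 10 genes summed to 1644 FPKM with shRNA1, 1688 FPKM with shRNA2 and 1514 FPKM in the control. This was 0.191%, 0.209% and 0.192% of the total listed FPKM in the shRNA1, shRNA2 and control libraries. Without SNHG25 the shares were 0.179% with shRNA1, 0.198% with shRNA2 and 0.191% in the control.

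The directions of the 10 genes were set against those of all genes. Of the 10, 5 were higher with both hairpins, against 42.4% of all genes tested, and 4 were lower with both, against 42.6%. These shares are near the background, and the genes were chosen on the same contrast. Their median log2 change was 0.12, or 0.023 without SNHG25, beside 0.00053 for all 13112 genes tested. The 797 long noncoding genes tested leaned upward, with 490 higher and 180 lower with both hairpins and a median of 0.25. Bounds of both hairpin libraries lay wholly above those of the control for 0 of the 10 genes and for 0.0839% of all genes tested, and wholly below for 0 of the 10 and for 0.221%.

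The snoRNAs carried by the 10 genes were mostly without a value. GENCODE places 25 snoRNA genes inside 9 of them on the same strand, and 16 of these were listed at 0 in all 3 libraries. Among 16 C/D box guests, 15 were at 0, and the other was SNORD22 in SNHG1, at 72.9 FPKM with shRNA1, 94.5 FPKM with shRNA2 and 33.6 FPKM in the control. All 7 H/ACA box guests, which are longer, had a value above 0 in at least 1 library. SNORA44 was above 0 only in the control, at 2.57 FPKM. SNORA16A is counted through overlapping entries, at 3.89 FPKM with shRNA1 alone and at 0.902 FPKM in the control alone. The 25 likewise hold RF00407, an entry that overlaps SNORA50C. SNORA61 in SNHG12 was at 126 FPKM with shRNA1, 91.8 FPKM with shRNA2 and 92.5 FPKM in the control. SNORA9 in SNHG15 was at 36.2 FPKM with shRNA1, 12.4 FPKM with shRNA2 and 31.4 FPKM in the control. SNORA24 in SNHG8 was at 3.89 FPKM with shRNA1, 58.5 FPKM with shRNA2 and 0.962 FPKM in the control, so the hairpins disagreed for this guest while its host was nearly level between them. The deposited bounds of each of these guests start at 0 in every library, and none shows a difference from the control beyond them. An exact 0 may be a failed estimate for RNAs this short and is not read as absence. SNORA50C, SNORA61, SNORA9, SNORA24 and SNORD22 each also lie in an exon of at least 1 host transcript, so their values and those of the hosts are not separate measurements. The snoRNAs that RefSeq places inside GAS5 are not used here, since the rows with their symbols lie outside that gene.

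Several hosts overlap a gene on the opposite strand, and whether strand was used in counting is not stated. ZFAS1 overlaps ZNFX1 by 249 bp, and ZNFX1 was at 13.6 FPKM with shRNA1, 14.8 FPKM with shRNA2 and 15.0 FPKM in the control. GAS5 overlaps ZBTB37 by 801 bp, and ZBTB37 was at 2.24 FPKM with shRNA1, 2.52 FPKM with shRNA2 and 3.90 FPKM in the control. In both pairs the host was above its partner. SNHG12 overlaps TRNAU1AP by 8 bp, and there the partner was above the host, at 17.98 FPKM with shRNA1, 17.9 FPKM with shRNA2 and 16.98 FPKM in the control.

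Other noncoding host genes also lay on both sides of the control. Of 24 on the list, 23 are in the table and 19 were tested. With both hairpins, 10 were higher and 6 were lower, and the median log2 change was 0.08. In limma across all genes, with Benjamini-Hochberg adjustment at 0.05, 0.0839% of genes were called higher and 0.267% lower. None of the 19 passed in either direction, and 8 had an unadjusted p under 0.05 (42.1%), as did 29.7% of all genes tested. The robust version of the test called 2 of them, but it also called 430 genes higher and 595 lower over all 13112. A fit on the 12778 genes of at least 300 nt called 5 of them, beside 941 genes higher and 1268 lower. TP53TG1, a p53 target listed among the hosts although GENCODE places no snoRNA gene inside it, was at 21.5 FPKM with shRNA1, 18.02 FPKM with shRNA2 and 9.49 FPKM in the control. Its log2 change was 1.01 with a standard error of 0.15 and a limma adjusted p of 0.0831, and this p ran between 0.00713 and 0.240 over the settings tried. SNHG10 was at 1.55 FPKM with shRNA1, 2.13 FPKM with shRNA2 and 3.71 FPKM in the control, with a limma adjusted p of 0.116. The bounds of SNHG10 run from 0 to 7.64 with shRNA1, 0 to 10.6 with shRNA2 and 0 to 14.5 in the control. SNHG3 was at 9.61 FPKM with shRNA1 (bounds 0 to 61.0), 23.4 FPKM with shRNA2 (0 to 201) and 23.7 FPKM in the control (0 to 201). Its mean log2 change of -0.63 thus rests on the shRNA1 library. SNORA73A lies in an exon of 1 SNHG3 transcript, so fragments from the shared bases can be given to either row. It was at 8627 FPKM with shRNA1, 7437 FPKM with shRNA2 and 6435 FPKM in the control. SNHG11, named after its values were seen, was at 19.1 FPKM with shRNA1, 18.6 FPKM with shRNA2 and 12.2 FPKM in the control, a log2 change of 0.61, the same value as for SNHG8.

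**Figure D3:**
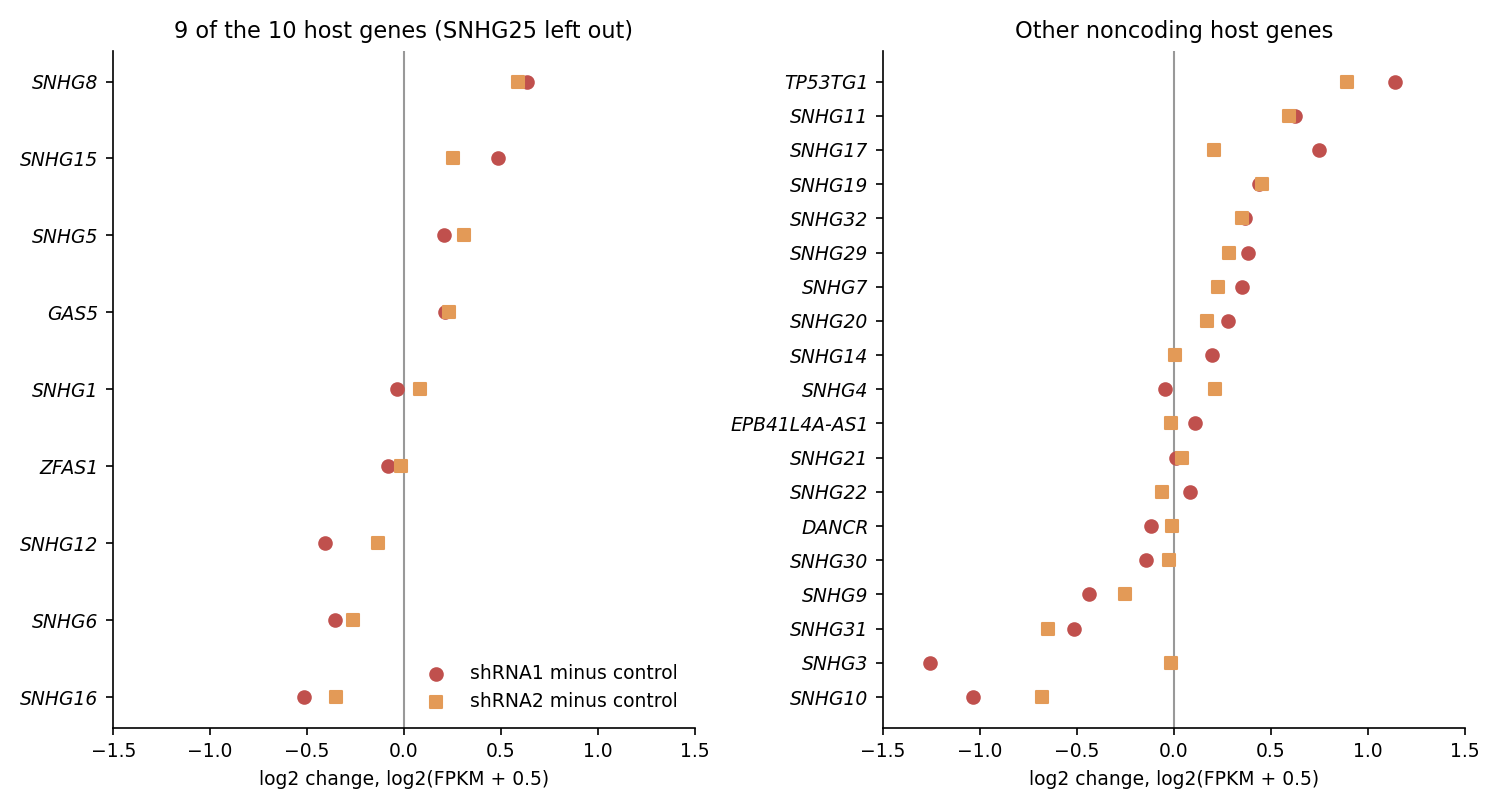
Log2 change from the control with shRNA1 (circles) and shRNA2 (squares), on the log2(FPKM + 0.5) scale, for 9 of the 10 host genes (left; SNHG25, at 4.85 and 4.57, is left out) and for 19 other noncoding host genes (right). Points lie on both sides of 0 in each panel, and SNHG3 shows the widest gap between the hairpins.

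Neighbouring gene groups give the setting: the proteins that build snoRNA particles, the decay pathway that clears spliced hosts, and the protein-coding genes that also carry snoRNAs. Of 18 snoRNA-particle proteins and assembly factors tested, 10 were higher and 5 lower with both hairpins, with a median of 0.07 and no limma call (4, or 22.2%, at an unadjusted p under 0.05, below the 29.7% of all genes). The largest changes were 0.40 for ZNHIT6 and 0.38 for RUVBL1, both assembly factors, and -0.35 for RPAP3, a cochaperone of the same machinery. Of 15 nonsense-mediated decay factors tested, 8 were higher and 5 lower, with a median of 0.04 and no limma call (2, or 13.3%, at an unadjusted p under 0.05). The log2 change was -0.34 for CASC3, an exon junction protein, and 0.31 for UPF2, a core decay factor. After each library was brought to 1 common total FPKM, the medians of the snoRNA-particle and decay groups became -0.0025 and -0.04. The medians over all genes were then -0.12 with shRNA1 and -0.03 with shRNA2, so these signs turned with a shift of all genes.

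Of 46 protein-coding host genes tested, 32 were higher and 8 lower with both hairpins, with a median of 0.18. None of the 46 passed limma (8, or 17.4%, at an unadjusted p under 0.05). EEF1B2, a translation elongation factor subunit, had the largest change, at 459 FPKM with shRNA1, 403 FPKM with shRNA2 and 266 FPKM in the control, with a limma adjusted p of 0.0844. CCT6P1, a chaperonin pseudogene on that list, had a log2 change of -0.67 at levels near the filter. It was at 1.12 FPKM with shRNA1 (bounds 0.0158 to 2.23), 0.684 FPKM with shRNA2 (0 to 1.48) and 1.70 FPKM in the control (0.295 to 3.11). RPL21, a ribosomal protein gene, had a log2 change of 0.41, the mean of 0.63 with shRNA1 and 0.20 with shRNA2. The 22 ribosomal protein genes among these hosts, grouped after their values were seen, were all higher with both hairpins, with a median of 0.29 and a range of 0.09 to 0.41. After each library was brought to 1 common total FPKM, 21 of the 22 stayed higher with both and the median was 0.21. A CTTT start was annotated for 11 of the 22 and for 14 of all 46 protein-coding hosts. It was annotated for 7 of the 10 noncoding hosts, whose directions were split, but for only 3 of the 23 other noncoding host genes. No test of the difference between these groups was made.

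**Figure D4:**
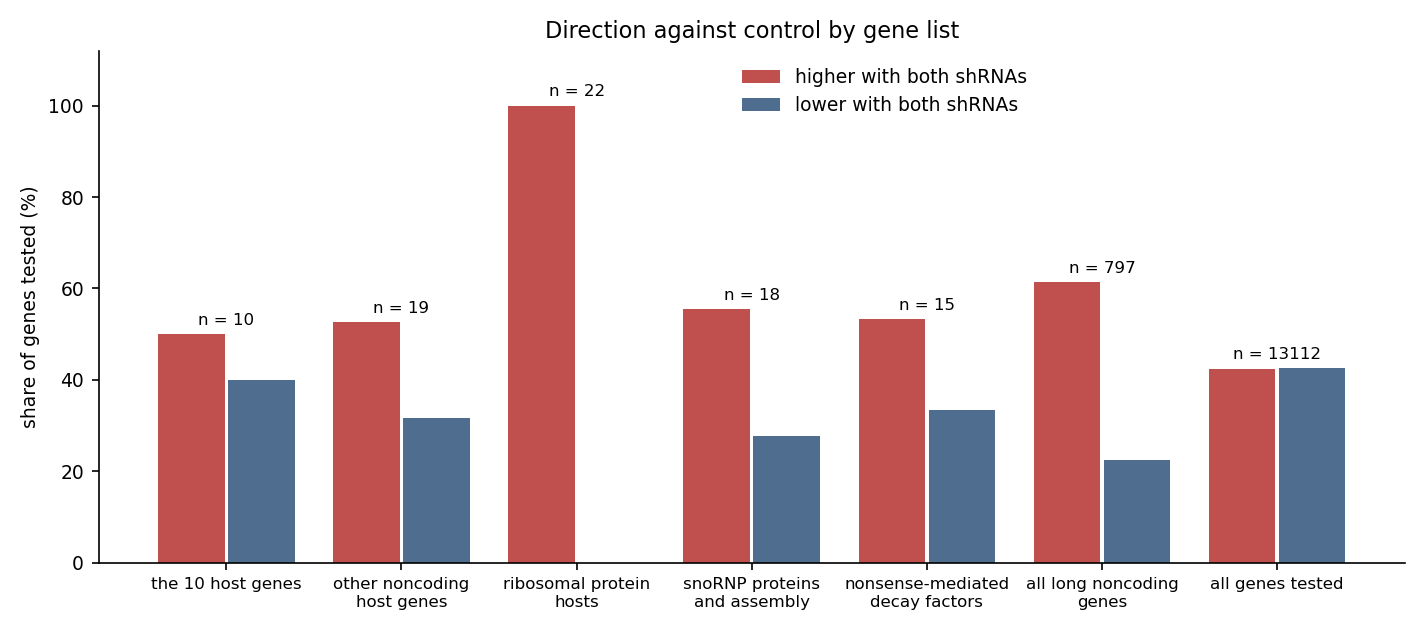
Share of the genes tested in each list that were higher (red) or lower (blue) than the control with both hairpins, in percent, with the number tested above each pair of bars. The 10 host genes are at 50% higher and 40% lower, all genes tested at 42.4% and 42.6%, and the ribosomal protein hosts at 100% higher.

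The 5 noncoding genes whose pair of changes lay nearest to the medians of the 10 genes, 0.08 with shRNA1 and 0.16 with shRNA2, were RP11-983P16.4, THUMPD3-AS1, NUTM2A-AS1, LINC01578 and RP4-568C11.4. They were taken from 182 candidates with a mean of at least 5 FPKM, by distance in log2 units over the 2 hairpins, and lay 0.016 to 0.056 away. LINC01578 was the most abundant of these, at 72.5 FPKM with shRNA1, 78.5 FPKM with shRNA2 and 70.6 FPKM in the control. Since the 10 genes did not move together, nearness to their medians does not mark a behaviour shared with them.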

How the data were processed

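RNA sequencing of 3 T47D libraries was used, 2 with ERINA hairpins and 1 control. The authors deposited FPKM per gene with lower and upper bounds and a status, per the file headers. All 10 genes had the status OK in every library. Per the submitters' processing notes, STAR, RSEM and the GRCh38 build were used, without versions. No source used here gives the authors' annotation. Gene IDs were matched to GENCODE release 29, which held 57435 of 58039. Sequences came from its transcripts. RefSeq symbols (GRCh38.p14) served to match renamed genes.

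Genes with a mean of at least 1 FPKM (13112) were fitted on log2(FPKM + 0.5) with limma 3.58.1 (trend) in R 4.3.3, knockdown minus control, with Benjamini-Hochberg adjustment at 0.05. The fit has 1 residual degree of freedom, and the lone control is assumed to vary like the hairpin libraries. The fit was tested on simulated data with the same spread for every gene and library, which cannot check that assumption. FPKM carry no counts, so depth and counting intervals are unknown. Fold changes on this scale understate the change of low genes.

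The 10 genes and the lists were chosen with earlier results of these data known. Named were the 10 genes, guest snoRNAs at 10 FPKM or more, and the 5 noncoding genes nearest to the median changes of the 10. From each other list, any limma call and the 3 largest changes of 1 sign in both hairpin libraries were named. A gene named by this rule is not reported here.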

Additional observations from a re-analysis of the deposited data

How the results depend on the processing

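Of the 10 host genes, 9 kept the sign of their mean change under every alternative that gave a value, and SNHG1 took the opposite sign in 3 of 11; SNHG25 gave no value among genes of at least 300 nt. The number of the 10 higher with both hairpins stayed within 1.5 times of 5. Their median log2 change, 0.12 as reported, was 0.045 with each library brought to 1 common total FPKM, 0.047 with the total taken over genes of at least 300 nt, and 0.023 among those genes alone. With the common total, the median log2 change over all genes was -0.12 for shRNA1 and -0.03 for shRNA2. The median of the other noncoding hosts, 0.08 as reported, was 0.29 with a minimum of 5 FPKM and 0.014 and 0.017 with the common totals. Limma calls over all genes depended most on the setting, from 11 higher and 35 lower as reported to 0 and 0 without the filter, 65 and 111 with the common total, 61 and 120 with the total over long genes, 941 and 1268 among genes of at least 300 nt, and 430 and 595 with the robust fit; without the trend 6 were higher. The cause of these shifts was not tested. Other noncoding hosts, with 0 calls as reported, had 5 among genes of at least 300 nt (TP53TG1, SNHG11, SNHG19, SNHG32 and SNHG10) and 2 with the robust fit (TP53TG1 and SNHG11). Genes with bounds clear of the control numbered 40 with both hairpins, and between 42 (without shRNA1) and 121 (without shRNA2) with 1 hairpin library left out. No paired analysis was possible because the groups share fewer than 2 replicate numbers. Depth is unknown for FPKM, so for SNHG25, SNHG12 and the guest snoRNAs the deposited bounds are the only measure of precision.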
